A study of Mus musculus with 8 samples.

Results

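The genes described here are 42 genes of the NF-kB and immediate-early responses, found by their GENCODE M21 symbols among the 54838 Ensembl genes counted in every sample. They comprise 20 NF-kB subunits, feedback genes and targets, here called the NF-kB genes, and 22 immediate-early genes. RNA-seq read counts were examined for 8 mouse bone marrow samples whose cells are labeled *iMLL-AF9* leukaemic stem cells of WT genotype, 4 treated with DMSO, the vehicle, and 4 with IOX5, an inhibitor of the HIF prolyl hydroxylases (PHDs), numbered 1 to 4 in each group. Both groups carry a doxycycline-inducible *MLL-AF9* allele on the C57BL/6 background. The design text calls the cells preleukaemic and the methods call them leukemic. The dose, the length of treatment, the age of the donor mice and what a replicate number marks are not stated for these samples. Nothing states that replicates were separate cultures or mice, so p-values measure the spread between these samples, which may be technical.

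NF-kB is a family of dimeric transcription factors held inactive in the cytoplasm by IkB proteins. Signals from receptors for TNF, interleukin-1 and microbial products lead to phosphorylation and loss of IkB, and NF-kB then enters the nucleus and switches on its targets, among them its own inhibitors *Nfkbia* (IkB alpha) and *Tnfaip3* (A20), which end the response. Immediate-early genes are transcribed within minutes of a growth factor or stress signal without new protein synthesis, largely through serum response factor and MAP kinases, and many encode transcription factors of the AP-1, EGR and KLF families or proteins that shut the signal off. Hydroxylases of the PHD family mark HIF for degradation in the presence of oxygen, and an IkB kinase has been described as a further point of contact between PHDs and NF-kB.

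RefSeq promoter windows on GRCm38.p6, matched by symbol, were found for 35 of the 42 genes and not for *Nfkb1*, *Relb*, *Nfkbiz*, *Cd83*, *Egr1*, *Klf10* and *Ier2*. In the 250 bases before an annotated start, on either strand, the NF-kB consensus was present in 11 of the 35 genes (*Nfkb2*, *Rel*, *Nfkbia*, *Nfkbie*, *Tnfaip3*, *Tnip1*, *Fos*, *Fosb*, *Fosl2*, *Maff* and *Ier3*), and in 4.46% of all genes with a window. Some genes have several starts, and a gene counted if any of its windows held the motif. The CArG box, the letters bound by serum response factor, was present in 3 (*Egr2*, *Dusp5* and *Zfp36*) and in 1.62% of all genes. The other motifs searched were TGANTCA (AP-1), found in 4 of the 35 genes and 7.82% of all genes, TGACGTCA (CREB), found in 2 and 1.77%, ACGTG (the HIF core, where a CACGTG is read on both strands), found in 11 and 18.5%, and GCGTGGGCG (EGR), found in 1 and 0.622%. The NF-kB matches of *Fosl2*, some of those of *Nfkb2* and the CArG box of *Zfp36* lay in an annotated exon of the gene. A match is a description of letters only. Stretches of 130 bases upstream of the RefSeq start are shown for 6 genes whose expression differed between IOX5 and DMSO when samples of the same replicate number were compared. They are written 5′ to 3′ along the gene's own strand with the NF-kB consensus in capitals, or in *Dusp5* 2 CArG boxes side by side. Bases of an annotated exon next to the start were cut, 1 in *Rel*, 29 in *Ier3* and 36 in *Dusp5*. The *Tnfaip3* stretch lies inside the gene as GENCODE M21 places it (19000910 to 19015657).
Tnfaip3, chr10:19015411-19015540, minus strand: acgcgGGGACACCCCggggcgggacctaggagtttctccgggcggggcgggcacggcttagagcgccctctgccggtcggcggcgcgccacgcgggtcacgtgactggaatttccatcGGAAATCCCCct
Rel, chr11:23770971-23771100, minus strand: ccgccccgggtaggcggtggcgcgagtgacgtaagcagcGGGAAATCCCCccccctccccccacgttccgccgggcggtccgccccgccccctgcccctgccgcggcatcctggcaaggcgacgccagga
Nfkbia, chr12:55492648-55492777, minus strand: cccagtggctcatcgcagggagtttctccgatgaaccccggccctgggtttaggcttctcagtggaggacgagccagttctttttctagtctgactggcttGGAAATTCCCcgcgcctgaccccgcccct
Ier3, chr17:35821554-35821683, plus strand: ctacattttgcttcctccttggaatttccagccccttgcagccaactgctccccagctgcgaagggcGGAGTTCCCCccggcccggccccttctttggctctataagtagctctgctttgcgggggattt
Nfkbie, chr17:45555570-45555699, plus strand: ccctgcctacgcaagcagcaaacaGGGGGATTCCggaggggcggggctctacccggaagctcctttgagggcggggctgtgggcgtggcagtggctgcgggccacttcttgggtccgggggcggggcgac
Dusp5, chr19:53528979-53529108, plus strand: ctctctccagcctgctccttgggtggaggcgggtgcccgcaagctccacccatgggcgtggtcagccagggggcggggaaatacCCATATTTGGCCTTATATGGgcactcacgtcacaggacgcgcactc

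Levels are given as CPM, normalized read counts brought to the same library size from the reads counted on genes and edgeR's TMM factors, and as CPM per kb of exon where genes are compared with each other. Reads counted on genes ranged from 12343770 to 14116054 in the DMSO samples and from 11351507 to 12708888 in the IOX5 samples. The 10 progenitor markers checked, among them *Kit*, *Cd34*, *Hoxa9*, *Meis1* and *Mpo*, were all detected, and the 10 HIF target genes checked were all higher with IOX5. Of these HIF targets 6 passed edgeR's test, which called 0.774% of all genes tested as higher. All 10 passed it in the paired fit described below, which called 11.2% of all genes as higher. *Pdk1*, for example, was between 143.6 and 185 CPM with DMSO and between 261 and 277 CPM with IOX5.

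In the DMSO samples, the highest levels per kb of exon belonged to *Ier2* (48.8 CPM per kb), *Jund* (46.3), the TNF receptor *Tnfrsf1a* (45.9) and *Tnfaip2* (43.7), whose sample values overlapped each other. *Tnfrsf1b*, *Junb*, *Plaur*, *Nfkbia* and *Rela* followed, with 29.6, 29.4, 28.6, 28.4 and 26.7 CPM per kb and overlapping samples. *Fos* had 3.18 CPM per kb, *Egr1* 1.57, *Egr2* 0.202 and *Fosb* 0.0612. The lowest was *Cd83* (0.0219 CPM per kb), a surface protein of mature dendritic cells, for which the DMSO samples held 1, 1, 0 and 1 reads and the IOX5 samples 1, 2, 7 and 10. *Fosb*, with between 2 and 9 reads in every sample, and *Cd83* did not pass the filter on low counts. Hence 40 of the 42 genes were tested, 19 of the NF-kB and 21 of the immediate-early genes, among 12405 genes in all.

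**Figure D1:**
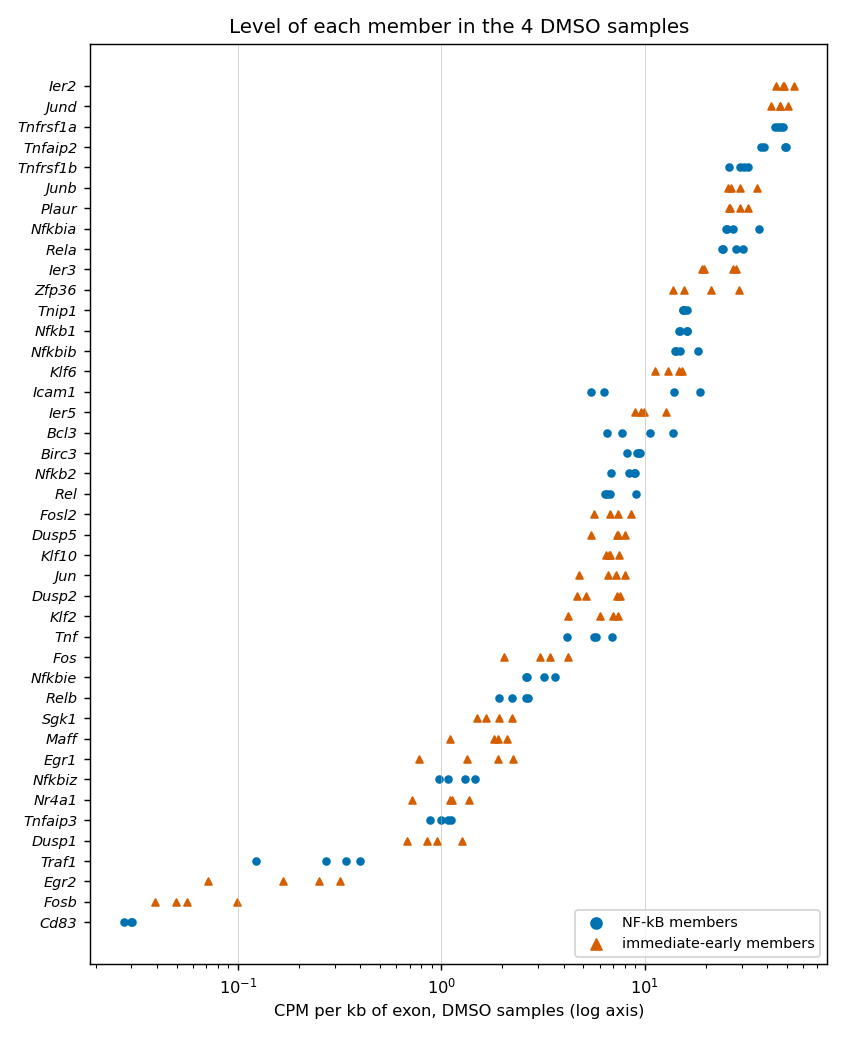
Level of each of the 42 genes in the 4 DMSO samples, as CPM per kb of exon on a log axis, with genes ordered by their mean and 1 symbol for each sample. *Ier2*, *Jund*, *Tnfrsf1a* and *Tnfaip2* stand at the top and *Cd83* at the bottom; the DMSO sample in which *Cd83* had 0 reads cannot be drawn on a log axis.

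The comparison asked which of these genes changed upon PHD inhibition. edgeR's quasi-likelihood test without regard to replicate numbers (the unpaired fit) called 1 of the 40 genes, *Dusp5*, as higher with IOX5 and 0 as lower, at an adjusted p under 0.05. Over all genes tested it called 2.02%, with 0.774% higher and 1.25% lower. At an unadjusted p under 0.05 there were 10 of the 40, 9 of them higher, beside 20.2% of all genes (8.98% higher and 11.2% lower). DESeq2 called 4 as higher (*Tnfrsf1b*, *Dusp5*, *Ier3* and *Sgk1*) and 0 as lower, beside 8.79% of all genes (3.94% higher and 4.85% lower). Samples with the same number in both groups deviated together over all genes, with correlations of 0.636 to 0.758. Numbers 3 and 4 were not told apart in this way. DMSO sample 4 correlated with IOX5 sample 3 at 0.685 and DMSO sample 3 with IOX5 sample 4 at 0.617. A second fit took the replicate number into the model as a block, here called the paired fit. It called 12 of the 40 genes, 10 higher and 2 lower, beside 20.7% of all genes (11.2% higher and 9.43% lower).

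Among the NF-kB genes, 4 of 19 rose in the paired fit (*Nfkbia*, *Nfkbie*, *Tnfaip3* and *Tnfrsf1b*) and 1 fell (*Rel*). Among the immediate-early genes, 6 of 21 rose (*Dusp2*, *Dusp5*, *Ier3*, *Klf10*, *Sgk1* and *Plaur*) and 1 fell (*Zfp36*). The median log2 fold change was -0.014 over the NF-kB genes, 0.18 over the immediate-early genes and 0.017 over all genes tested. In sign, 9 NF-kB genes were above and 10 below 0, against 15 and 6 of the immediate-early genes, beside 6550 and 5855 of all genes tested. All 4 pairs were higher with IOX5 for 12 of the 40 genes, beside 21.3% of all genes, and lower for 5 (*Nfkb1*, *Rel*, *Nfkbib*, *Bcl3* and *Zfp36*), beside 19.8%. The 4 IOX5 values lay wholly above the 4 DMSO values for 3 genes, *Dusp5*, *Ier3* and *Tnfaip3*, beside 5.98% of all genes, and wholly below them for 0, beside 8.3%, so 3 of 40 did not overlap in either direction, beside 14.3%.

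**Figure D2:**
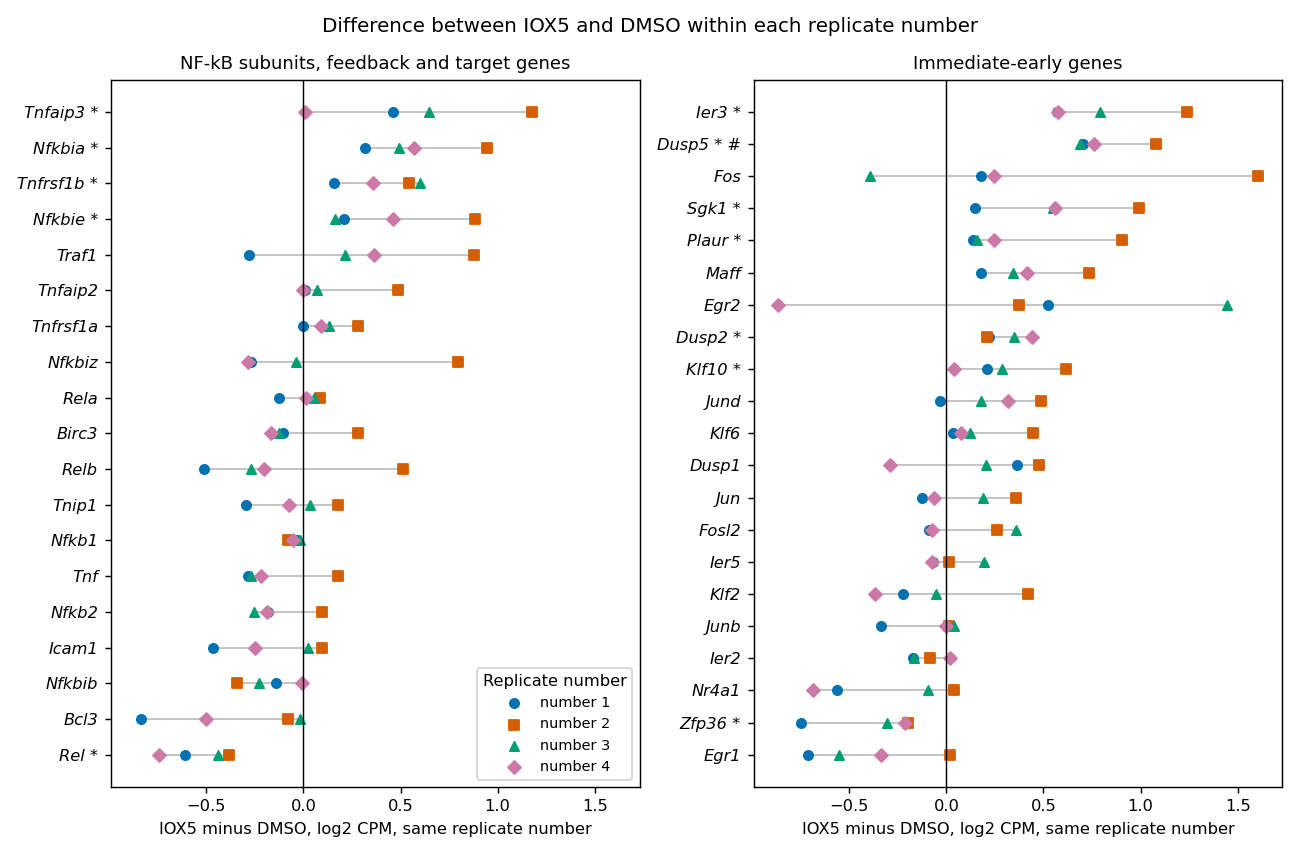
Difference between IOX5 and DMSO within each replicate number, in log2 CPM, for the 19 NF-kB genes (left) and 21 immediate-early genes (right) tested, with 1 symbol for each number and a gray line over their range. An asterisk marks an adjusted p under 0.05 in the paired fit and a hash mark the same in the unpaired fit; *Ier3* and *Dusp5* lie to the right of 0 and *Rel* to the left in every pair, and for 30 of the 40 genes the orange square (number 2) is farthest to the right.

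Of the 5 NF-kB subunits, *Rel*, which encodes the c-Rel protein of blood cells, was the gene that changed. It had 50.7, 68.0, 47.7 and 48.9 CPM in DMSO samples 1 to 4 and 33.2, 52.1, 35.1 and 29.1 CPM in IOX5 samples 1 to 4. The IOX5 sample was lower in all 4 pairs, though IOX5 sample 2 lay above 3 DMSO samples. The log2 fold change was -0.53 (SE 0.189, adjusted p = 0.168) in the unpaired fit and -0.54 (SE 0.0795, adjusted p = 6.67e-04) in the paired fit, and the paired call was kept with each number left out in turn (adjusted p at most 0.00581). *Nfkb1*, the precursor of the p50 subunit, had the highest CPM of the subunits, with 179.5, 178, 195 and 194 CPM with DMSO and 175, 168, 193 and 187 CPM with IOX5. Per kb of exon, *Rela* was higher in the DMSO samples, at 26.7 against 15.5 CPM per kb for *Nfkb1*. *Nfkb1* was lower with IOX5 in all 4 pairs, by no more than 0.079 on the log2 scale, with overlapping groups (log2 fold change -0.05, SE 0.0647, adjusted p = 0.737). *Rela* (0.01), *Relb* (-0.03) and *Nfkb2* (-0.12) had log2 fold changes near 0, with paired adjusted p of 0.952, 0.738 and 0.281. *Nfkb2* shares 299 exon bases with *Psd* on the opposite strand, for which 33 reads were counted.

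The IkB and Bcl3 family, which binds NF-kB subunits and restrains or redirects them, moved unevenly. *Nfkbia*, the classical feedback inhibitor, had 40.7, 58.6, 40.3 and 43.5 CPM with DMSO and 50.7, 113, 56.8 and 64.7 CPM with IOX5. IOX5 sample 2 was by far the highest, and IOX5 samples 1 and 3 lay below DMSO sample 2. The log2 fold change was 0.64 (SE 0.249, adjusted p = 0.2005) unpaired and 0.59 (SE 0.091, adjusted p = 8.88e-04) paired. Without number 2 it was 0.46, and the call was kept under each number left out (adjusted p at most 0.00648).

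*Nfkbie*, which encodes IkB epsilon, had 11.1, 7.93, 9.75 and 8.03 CPM with DMSO and 12.8, 14.7, 10.9 and 11.1 CPM with IOX5. All 4 pairs were higher while the groups overlapped, with a log2 fold change of 0.43 (SE 0.158, adjusted p = 0.176) and a paired adjusted p of 0.0372, which became 0.151, 0.0636 and 0.0859 without numbers 2, 3 and 4, with a log2 fold change of 0.27 without number 2. *Bcl3*, a nuclear IkB protein that can act as a co-activator, had 26.4, 34.1, 16.1 and 19.2 CPM with DMSO and 14.7, 32.2, 15.9 and 13.5 CPM with IOX5. The IOX5 sample was lower in all 4 pairs, but the differences were within 0.08 on the log2 scale for numbers 2 and 3, and the call was not reached (log2 fold change -0.33, SE 0.325, adjusted p = 0.617; paired 0.0610). *Nfkbib* (IkB beta) had 30.5, 39.5, 31.0 and 32.3 CPM with DMSO and 27.6, 31.2, 26.4 and 32.1 CPM with IOX5, lower in all 4 pairs with overlapping groups and a paired adjusted p of 0.141. *Nfkbib* overlaps exons of *Sirt2* by 42 bases on the opposite strand. *Nfkbiz*, which encodes the nuclear IkB zeta, was higher with IOX5 in number 2 and lower in the other pairs (log2 fold change 0.07, SE 0.225).

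Among the modulators of the signal, *Tnfaip3*, whose product A20 edits ubiquitin chains on receptor complexes, had 6.35, 7.78, 7.23 and 8.11 CPM with DMSO and 8.81, 17.8, 11.4 and 8.15 CPM with IOX5. The groups did not overlap, though IOX5 sample 4 barely exceeded DMSO sample 4, and IOX5 sample 2 was the highest. This gave a log2 fold change of 0.65 (SE 0.246, adjusted p = 0.189) unpaired and 0.60 (SE 0.163, adjusted p = 0.0191) paired. Without number 2 it was 0.39 with an adjusted p of 0.0743, and without number 3 the adjusted p was 0.0880. *Tnip1*, which encodes a partner of A20 and was the most abundant modulator, had 54.7, 55.1, 54.8 and 57.2 CPM with DMSO and 44.6, 62.3, 56.2 and 54.4 CPM with IOX5. Its IOX5 values lay on both sides of the DMSO values (log2 fold change -0.03, SE 0.0949, adjusted p = 0.893). *Birc3* (cIAP2) and *Traf1*, which encode proteins of TNF receptor complexes, had log2 fold changes of -0.01 and 0.22 with SEs of 0.122 and 0.342, and *Traf1* was measured at between 1.09 and 3.53 CPM.

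Of the TNF ligand and its receptors, *Tnfrsf1b*, which encodes the TNFR2 receptor, rose in the paired fit. It had 99.0, 112, 118 and 123 CPM with DMSO and 110.4, 163, 179 and 158 CPM with IOX5. IOX5 sample 1 lay within the DMSO values and the other 3 above them. Its log2 fold change was 0.43 (SE 0.141, adjusted p = 0.137) unpaired and 0.42 (SE 0.0768, adjusted p = 0.00246) paired, with paired calls kept under each number left out. *Tnfrsf1a* (TNFR1) had a log2 fold change of 0.13 (SE 0.0868) unpaired and 0.13 (SE 0.0664, adjusted p = 0.195) paired. *Tnf* itself, at 9.20 ± 1.88 CPM with DMSO and 8.53 ± 3.10 CPM with IOX5 (mean ± SD, n = 4), was lower with IOX5 in numbers 1, 3 and 4 and higher in number 2.

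Among the remaining targets, *Tnfaip2* had 193, 187, 245 and 246 CPM with DMSO and 194, 262, 257 and 245 CPM with IOX5, and *Icam1*, the adhesion molecule that binds leukocyte integrins, followed its replicate number rather than the treatment. *Icam1* had 60.8, 81.3, 23.7 and 27.5 CPM with DMSO and 44.0, 86.9, 24.2 and 23.1 CPM with IOX5. In both groups samples 1 and 2 lay above samples 3 and 4, and the log2 fold change was -0.12 (SE 0.516). *Icam1* is described in full because of that pattern, seen in its values.

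The immediate-early genes held the 2 largest log2 fold changes of the 40 genes, in *Dusp5* and *Ier3*. *Dusp5*, a nuclear phosphatase that inactivates ERK and is itself induced by ERK signaling, had 18.3, 13.5, 19.8 and 18.1 CPM with DMSO and 29.9, 28.8, 32.0 and 30.9 CPM with IOX5. Every IOX5 sample lay above every DMSO sample, at 30.4 ± 1.40 against 17.4 ± 2.72 CPM (mean ± SD, n = 4). The log2 fold change was 0.80 (SE 0.121, adjusted p = 0.0254) in the unpaired fit, a 1.74-fold difference, and 0.81 (SE 0.0943, adjusted p = 1.83e-04) in the paired fit. Leaving out DMSO sample 1, 3 or 4 or IOX5 sample 1 or 3 moved the unpaired adjusted p to between 0.0553 and 0.0947, with log2 fold changes of 0.77 to 0.87. Each number left out of the paired fit kept the call.

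The other phosphatases and the decay factor differed from it. *Dusp2*, a related nuclear phosphatase, had 10.3, 9.33, 14.6 and 15.2 CPM with DMSO and 12.01, 10.8, 18.7 and 20.7 CPM with IOX5. Each IOX5 sample exceeded the DMSO sample of its own number, while samples 1 and 2 were low in both groups. Its log2 fold change was 0.33 (SE 0.252, adjusted p = 0.501), and the paired adjusted p of 0.0426 rose to 0.0774, 0.183 and 0.135 without numbers 1, 3 and 4. *Dusp1* had a log2 fold change of 0.17 (SE 0.216), and shares 11 exon bases with *Ergic1* on the opposite strand.

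*Zfp36*, which encodes tristetraprolin, a protein that speeds the decay of AU-rich mRNAs such as *Tnf*, was lower with IOX5. It had 73.3, 101, 47.8 and 54.3 CPM with DMSO and 43.6, 88.5, 38.7 and 46.7 CPM with IOX5. All 4 pairs were lower, with overlapping groups, since sample 2 was the highest in both. *Zfp36* had a log2 fold change of -0.35 (SE 0.309, adjusted p = 0.566) unpaired and -0.37 (SE 0.0892, adjusted p = 0.0118) paired, and the paired adjusted p was 0.0736 without number 1.

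In the IER family, *Ier3*, a short-lived stress and survival protein that is a target of NF-kB, had 21.7, 22.2, 30.6 and 31.8 CPM with DMSO and 32.4, 52.7, 53.1 and 47.5 CPM with IOX5. The groups did not overlap, although IOX5 sample 1 only just exceeded DMSO sample 4. For *Ier3* the log2 fold change was 0.80 (SE 0.189, adjusted p = 0.0625) unpaired, a 1.74-fold difference, and 0.80 (SE 0.105, adjusted p = 3.29e-04) paired, and each number left out kept the paired call (adjusted p at most 0.00417). *Ier2*, the most abundant of the family, had 73.1, 82.4, 73.8 and 67.6 CPM with DMSO and 64.9, 77.8, 65.8 and 68.5 CPM with IOX5. These values overlapped (log2 fold change -0.10, SE 0.083), and those of *Ier5* differed by 0.02 on the log2 scale (SE 0.141).

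*Sgk1*, a kinase gene induced by serum and glucocorticoids, had 9.39, 7.39, 10.9 and 8.18 CPM with DMSO and 10.4, 14.8, 16.02 and 12.1 CPM with IOX5. IOX5 samples 2, 3 and 4 lay above all DMSO samples and IOX5 sample 1 among them. Its log2 fold change was 0.57 (SE 0.178, adjusted p = 0.121) unpaired, with a paired adjusted p of 0.0103 that became 0.0569 without number 3. *Plaur*, the urokinase receptor of myeloid cells, had 77.3, 84.7, 68.3 and 68.9 CPM with DMSO and 85.0, 159, 76.4 and 81.8 CPM with IOX5. IOX5 sample 2 stood far above all DMSO samples, and the other IOX5 samples lay among or just above them. The paired log2 fold change of 0.37 (SE 0.107, adjusted p = 0.0273) was 0.18 with an adjusted p of 0.0874 without number 2.

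The AP-1 and small Maf factors gave 0 calls among 6 tested, in the paired as in the unpaired fit with all samples. *Jund*, the most abundant of them, had 84.7, 77.4, 77.4 and 69.6 CPM with DMSO and 82.9, 109, 87.5 and 86.9 CPM with IOX5. It was higher in 3 pairs, with overlapping groups (log2 fold change 0.24, SE 0.098 unpaired, and 0.24, SE 0.0804, adjusted p = 0.0506 paired). Without number 1 the paired fit called it higher (log2 fold change 0.32, adjusted p = 0.0256). *Maff* had 4.94, 2.88, 5.44 and 4.71 CPM with DMSO and 5.61, 4.88, 6.96 and 6.33 CPM with IOX5, higher in all 4 pairs with a paired adjusted p of 0.0710.

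*Fos* had the largest log2 fold change of this group, 0.58 (SE 0.423, adjusted p = 0.487), and it rested on IOX5 sample 2. The IOX5 samples held 5.45, 22.1, 7.504 and 9.54 CPM, against 4.80, 7.16, 9.91 and 8.03 CPM with DMSO. Without number 2 the paired log2 fold change of *Fos* was -0.0066. *Jun* (0.13), *Junb* (-0.06) and *Fosl2* (0.12) had SEs of 0.255, 0.166 and 0.169 for these log2 fold changes. *Junb* shares 173 exon bases with *Prdx2* on the opposite strand, which had more reads (12295 against 6641 over the 8 samples).

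Of the EGR, KLF and NR4A factors, *Klf10*, a gene induced early by TGF-beta, rose in the paired fit. It had 31.3, 26.9, 27.9 and 28.1 CPM with DMSO and 36.3, 41.4, 34.1 and 28.9 CPM with IOX5. IOX5 samples 1 to 3 lay above all DMSO samples, and IOX5 sample 4 was 0.04 above its own pair on the log2 scale. For *Klf10* the log2 fold change was 0.30 (SE 0.114, adjusted p = 0.187) unpaired, and the paired adjusted p of 0.0454 became 0.0838, 0.159 and 0.156 without numbers 1, 2 and 3, with a log2 fold change of 0.18 without number 2. *Klf6*, the most abundant of these factors, had 49.5, 57.1, 65.0 and 67.2 CPM with DMSO and 50.7, 77.8, 70.7 and 70.9 CPM with IOX5. It was higher in all 4 pairs, with a paired adjusted p of 0.133.

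*Egr1*, the prototype zinc-finger immediate-early factor, was not called, at 7.06 ± 2.92 CPM with DMSO and 5.20 ± 1.87 CPM with IOX5 (log2 fold change -0.44, SE 0.364, adjusted p = 0.541 unpaired, and -0.43, SE 0.153, adjusted p = 0.0615 paired). It was lower in numbers 1, 3 and 4 and differed by 0.02 on the log2 scale in number 2, and without number 2 the paired fit called it lower (log2 fold change -0.53, adjusted p = 0.0174). *Nr4a1* (-0.34, SE 0.268), *Egr2* (0.34, SE 0.440) and *Klf2* (-0.003, SE 0.293) were not called, and *Egr2* was measured at between 0.244 and 1.15 CPM.

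**Figure D3:**
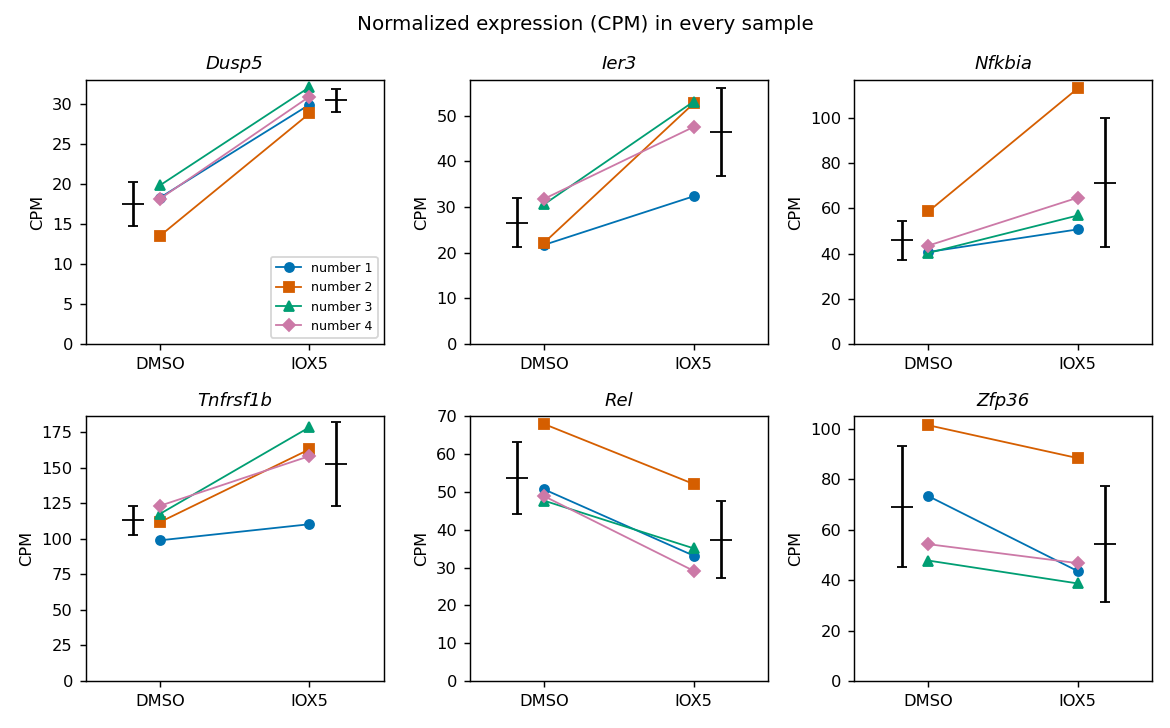
Normalized expression in CPM (vertical axes from 0) of 6 genes in every sample, with a line joining the DMSO and IOX5 samples of the same replicate number and black bars for the mean ± SD of the 4 samples of a group. *Dusp5* and *Ier3* do not overlap between groups, *Nfkbia* and *Tnfrsf1b* rise and *Rel* and *Zfp36* fall within every number.

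Samples with replicate number 2 carried much of the upward difference. The median pair difference over the 40 genes was -0.08, 0.37, 0.10 and -0.01 on the log2 scale for numbers 1 to 4, beside 0.0044, 0.035, -0.00079 and 0.0039 over all genes tested, and 16, 34, 25 and 18 of the 40 were above 0. The pair difference was most positive in number 2 for 30 of the 40 genes (75.0%), beside 34.2% of all genes. This was not particular to them, since it also held for all 10 HIF target genes checked. In the wider lists described below, it held for 64.0% of further NF-kB targets and 53.5% of genes upstream of NF-kB. For further immediate-early genes and those upstream of them the shares were 47.2% and 34.5%. IOX5 sample 2 was the highest of all 8 samples for 24 of the 40 genes (60.0%), beside 21.5% of all genes, and this held for 13 of the 19 NF-kB and 11 of the 21 immediate-early genes. Within the NF-kB genes the medians were -0.14, 0.28, 0.03 and -0.05, and within the immediate-early genes 0.03, 0.42, 0.19 and 0.02.

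Leaving out number 2, the paired fit called 6 of the 40 as higher (*Nfkbia*, *Tnfrsf1b*, *Dusp2*, *Dusp5*, *Ier3* and *Sgk1*) and 4 as lower (*Rel*, *Bcl3*, *Egr1* and *Zfp36*), beside 17.2% of all genes (1119 higher and 1016 lower of 12386). Over the full paired fit and the 4 fits with a number left out, *Nfkbia*, *Tnfrsf1b*, *Dusp5* and *Ier3* were called higher and *Rel* lower in each. Single fits among these called 8.37% to 20.7% of all genes. The share of all genes called in every one of them was not counted, and the fits have samples in common.

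Summed levels of the markers of several cell types were higher with IOX5 in all 4 pairs. For 10 progenitor markers the sum was between 2324 and 4754 CPM with DMSO and between 2637 and 5501 CPM with IOX5. Of the 10, 5 rose in the paired fit, beside 11.2% of all genes, and 3 had a log2 fold change below 0. The summed level of 12 macrophage markers was between 698 and 873 CPM with DMSO and between 815 and 1549 CPM with IOX5, highest in IOX5 sample 2. Of the 10 macrophage markers tested, 4 rose in the paired fit, beside 11.2% of all genes, and none of the 12 was at 0 reads. The sum of 12 neutrophil markers was between 601 and 1418 CPM with DMSO and between 770.1 and 2181 CPM with IOX5, again highest in IOX5 sample 2, with 7 of 11 tested rising and *Retnlg* at 0. The sum of 12 mast cell markers was between 188 and 727 CPM with DMSO and between 331 and 1140 CPM with IOX5, with 8 of 9 tested rising and *Mcpt4* at 0. Unlike the macrophage and neutrophil sums, the mast cell sum was low in numbers 1 and 2 of both groups (188 to 364 CPM) and high in numbers 3 and 4. The progenitor sum was split in the same way, with 2324 to 3049 CPM in numbers 1 and 2 and 4563 to 5501 CPM in numbers 3 and 4. The sum of 8 megakaryocyte markers was between 29.9 and 83.4 CPM with DMSO and between 96.0 and 166 CPM with IOX5, with *Gp1bb* at 0. Dendritic cell markers (7 genes, 5 of them under 1 CPM) summed to between 4.22 and 8.05 CPM with DMSO and between 8.21 and 21.6 CPM with IOX5, highest in IOX5 sample 2. Erythroid markers (8 genes, 3 of them under 1 CPM) summed to between 5.91 and 28.2 CPM with DMSO and between 11.01 and 43.5 CPM with IOX5, and stromal markers (8 genes, 5 of them under 1 CPM, *Col1a2* at 0) to between 85.01 and 165 CPM and between 133 and 219.8 CPM. Of the 2 stromal markers tested, 1 had a log2 fold change above 0 and 1 below 0. The sums of 6 B cell and 8 T cell markers stayed under 9 CPM in every sample. In the paired fit 5 of 6 megakaryocyte, 2 of 2 dendritic cell, 2 of 5 erythroid and 1 of 2 stromal markers tested rose. The unpaired fit called 1 megakaryocyte marker higher and 0 markers of the other types, beside 0.774% of all genes. The part of these cells in the differences above was not tested. In bulk samples, a change in the number of cells of a type and a change in RNA per cell cannot be told apart.

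**Figure D4:**
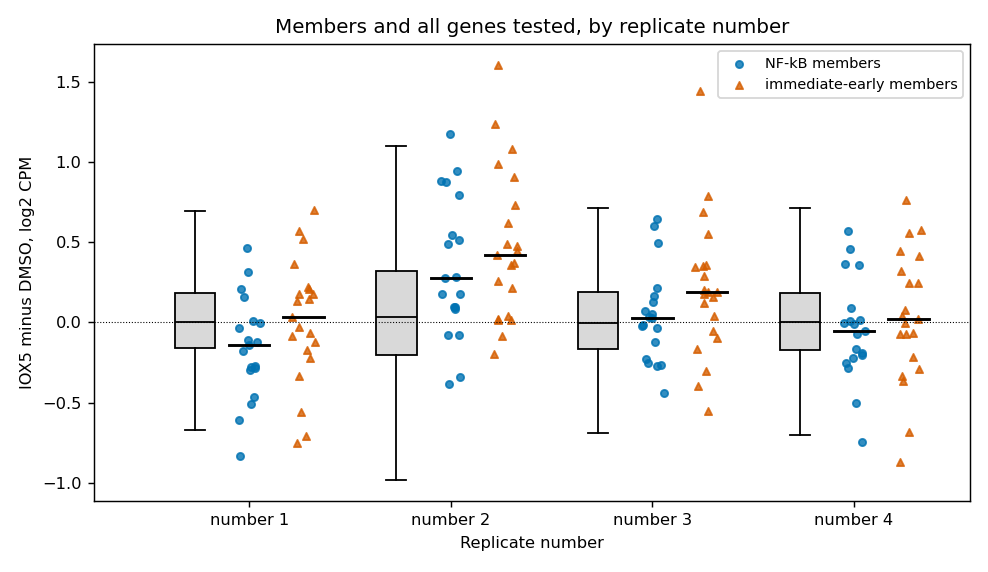
Difference between IOX5 and DMSO in log2 CPM for each replicate number, with a gray box (median, quartiles and whiskers to 1.5 times the interquartile range, farther values not drawn) for the 12405 genes tested, circles for NF-kB genes and triangles for immediate-early genes, and black lines for their medians. The members' medians lie highest in number 2, at 0.28 and 0.42, against 0.035 for all genes.

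More of these genes were called for the replicate number than for treatment, though the terms for the replicate number were tested jointly, so the counts are not like for like. In the paired fit, the terms for the replicate number passed edgeR's test for 21 of the 40 genes (52.5%), 9 of 19 NF-kB and 12 of 21 immediate-early genes, beside 22.5% of all genes tested. The mean level was highest in number 2 for 16 of the 21, in number 3 for 3 and in number 4 for 2. *Icam1* ranged most clearly, by 1.81 on the log2 scale or 3.50-fold between numbers 2 and 3 (adjusted p = 4.09e-07), followed by *Zfp36* (2.199-fold, adjusted p = 4.69e-05), *Nfkbia* (1.79-fold, adjusted p = 4.58e-04) and *Bcl3* (2.06-fold, adjusted p = 9.43e-04). *Jun* ranged 1.999-fold between numbers 2 and 1, and *Tnf* 1.95-fold. *Egr1* and *Dusp2* went the other way and were lowest in number 2. *Dusp5*, *Tnfaip3*, *Nfkbie*, *Klf10* and *Sgk1* were not called for the replicate number (adjusted p of 0.294, 0.125, 0.543, 0.462 and 0.290).

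Of 44 receptors, adaptors and kinases upstream of NF-kB, 43 were tested. The unpaired fit called 1, *Traf6*, the ubiquitin ligase of the Toll-like and interleukin-1 receptor pathways, which fell from 86.2 ± 5.08 to 70.7 ± 1.34 CPM (log2 fold change -0.29, adjusted p = 0.0485). With any of the 8 samples left out, its unpaired adjusted p was between 0.0559 and 0.145. In the paired fit 5 rose and 6 fell, or 25.6% of the list beside 20.7% of all genes (11.2% higher and 9.43% lower). *Tlr2* (-0.48) and *Myd88* (-0.39), a receptor of bacterial lipoproteins and its adaptor, fell with paired adjusted p of 0.00102 and 0.00208, and the coreceptor *Cd14* (0.60) rose with 0.00561. *Tlr2* and *Myd88* were lower in all 4 pairs, *Cd14* was higher in all 4, and all 3 had their highest IOX5 value in sample 2.

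Of 36 further NF-kB targets, 25 passed the filter, with 0 calls in the unpaired fit (6 at an unadjusted p under 0.05, beside 20.2% of all genes) and 7 higher and 1 lower in the paired fit, beside 11.2% and 9.43% of all genes. The growth factor gene *Csf1* went from 37.2 ± 10.02 to 61.5 ± 12.1 CPM (paired adjusted p = 0.00215) and *Gadd45b*, a stress sensor gene, from 23.5 ± 2.22 to 15.0 ± 2.66 CPM (paired adjusted p = 6.29e-04). The chemokine *Ccl2* and the cytokine *Il6* were higher in all 4 pairs, with log2 fold changes of 1.41 and 0.77 and paired adjusted p of 0.00466 and 0.0139. The paired log2 fold change of *Ccl2* was 2.07 without number 1 and 0.90 without number 2, and it was called in all 4 paired fits with a number left out. Unpaired, its log2 fold change ranged from 0.75 without IOX5 sample 2 to 2.12 without DMSO sample 1. *Ccl2* was highest in IOX5 sample 2 at 17.1 CPM, while *Il6* was at 0.778 to 3.82 CPM in samples 1 and 2 and at 12.8 to 26.2 CPM in samples 3 and 4. Without number 3 the paired adjusted p of *Il6* was 0.132.

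Of 41 further immediate-early and growth factor response genes, 36 were tested. *Tob1*, an antiproliferative gene, was called in the unpaired fit, rising from 31.7 ± 1.24 to 45.4 ± 4.67 CPM (log2 fold change 0.52, adjusted p = 0.0260). The unpaired call of *Tob1* was lost without any of the DMSO samples or without IOX5 sample 3 (adjusted p at most 0.119), while all 4 paired fits with a number left out kept it. In the paired fit 9 rose and 2 fell, or 30.6% of the list beside 20.7% of all genes. *Dusp6*, the cytoplasmic ERK phosphatase, was 0.88 higher on the log2 scale (paired adjusted p = 1.69e-04), with 8.33, 20.5, 50.1 and 45.8 CPM with DMSO and 17.0, 52.6, 90.8 and 68.9 CPM with IOX5. *Id2* and *Bhlhe40*, helix-loop-helix repressors, were 0.88 and 0.39 higher, with paired adjusted p of 2.24e-04 and 0.00463. *Spred1*, an inhibitor of RAS signaling, and *Srf*, serum response factor itself, fell with log2 fold changes of -0.25 and -0.23 (paired adjusted p of 0.0144 and 0.0184). Without number 3 neither was called, nor *Srf* without number 1 (adjusted p at most 0.125).

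Of 29 kinases and activators upstream of the immediate-early genes, 29 were tested, with 0 calls in the unpaired fit (6 at an unadjusted p under 0.05, beside 20.2% of all genes) and 2 higher and 5 lower in the paired fit, or 24.1% of the list beside 20.7% of all genes. *Crebbp*, the CREB-binding acetyltransferase, went from 53.3 ± 2.52 to 39.2 ± 5.03 CPM (paired adjusted p = 0.00292) and *Atf1*, a CREB family factor, from 109 ± 3.29 to 93.3 ± 3.44 CPM (paired adjusted p = 0.0206). The SRF cofactor *Mrtfb* (0.34) and the kinase *Mapk3* (0.31), which encodes ERK1, were higher with paired adjusted p of 0.0105 and 0.0207. With a number left out, *Crebbp* was called in 4 of 4 fits, *Mrtfb* in 3 (not without number 3), *Mapk3* in 2 (not without numbers 2 and 4) and *Atf1* in 1 (without number 2). The median log2 fold change of the 4 lists was -0.04, 0.15, 0.11 and 0.006 in the order given, beside 0.017 over all genes tested.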

How the data were processed

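RNA was extracted from bone marrow cells of 8 samples, and poly(A) RNA was made into directional libraries. According to the methods and the submitters' processing notes, the authors trimmed reads with cutadapt (1.18), mapped them to GRCm38 with HISAT2 (2.2.1) and obtained read counts per gene with HTSeq (2.0.1), so the deposited values are raw counts of each sample, without normalization or pooling. The annotation release and strand setting of the counting are not given in the sources used here; *Xist* had 105071 reads and its antisense partner *Tsix* 21. Lines that name no gene held 20.6% to 22.6% of reads and were left out.

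Symbols came from GENCODE M21 (54809 of 54838 identifiers matched). Counts were tested in R (4.3.3) with edgeR (4.0.16): TMM factors (0.988 to 1.03), filterByExpr, glmQLFit and glmQLFTest for IOX5 against DMSO. Benjamini-Hochberg adjustment was made over 12405 genes. A prior count of 2 was used in the log2 CPM behind pair differences and replicate-number means, and the default of glmQLFit in fold changes. SE was the log2 fold change divided by the square root of F. The paired fit added the replicate number. Deviations of same-numbered samples from their group means correlated at 0.636 to 0.758 over all genes, and of other samples at -0.615 to 0.685, the highest between DMSO sample 4 and IOX5 sample 3. edgeR estimated a common coefficient of variation of 0.202, and of 0.0794 with the block. The scripts were tested on simulated data. DESeq2 (1.42.0), other scaling factors, filters and left-out samples were alternatives.

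Members and gene lists were chosen with earlier results of these data known. Per-sample values are given for members called by either fit, members with all 4 pairs in the same direction and the member of each role group with the highest mean CPM. Genes of the wider lists are named where the unpaired fit called them or where they had the smallest paired adjusted p. The depth limits precision at low levels, where counting error dominates.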

Additional observations from a re-analysis of the deposited data

Results flagged for a closer look

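Among 80 groups of 4 samples (40 genes in each treatment), 5 held a sample that stood apart from the other 3 by Dixon's test at the 95% level, in which about 1 group in 20 does so by chance. In the IOX5 group, sample 2 was the highest for *Plaur* (159 CPM, a gap of 0.896 of the group's range), *Bcl3* (32.2 CPM, 0.875) and *Zfp36* (88.5 CPM, 0.838). In the DMSO group, sample 2 was the highest for *Rel* (68.0 CPM, 0.853) and sample 4 for *Tnip1* (57.2 CPM, 0.857). For *Plaur*, *Bcl3*, *Zfp36* and *Rel*, sample 2 was the highest in both treatments.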

How the results depend on the processing

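With the replicate number as a block, 1394 genes were called higher and 1170 lower, against 96 and 155 without it. The block raised the calls from 0 to 4 higher and 0 to 1 lower among NF-kB genes, and from 1 to 6 higher and 0 to 1 lower among immediate-early genes. DESeq2 called 489 genes higher and 602 lower, with 1 NF-kB and 3 immediate-early genes higher. Without a filter on low counts 73 genes were called lower, and upper-quartile factors gave 101 higher and 108 lower. The cause of these differences was not tested.

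Leaving out 1 sample of the unpaired fit gave 0 to 130 genes called higher and 0 to 333 lower. There were 0 calls over all genes without DMSO sample 3, DMSO sample 4 or IOX5 sample 3, and the most without IOX5 sample 4. Leaving out 1 replicate number of the paired fit gave 642 to 1355 higher and 403 to 1058 lower. Over both kinds, calls ranged from 0 to 4 higher and 0 to 2 lower among NF-kB genes and from 0 to 5 higher and 0 to 2 lower among immediate-early genes. The median log2 fold changes of both sets moved by less than their spread between replicate numbers, within -0.11 to 0.07 for NF-kB genes and 0.08 to 0.29 for immediate-early genes.

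The 14 genes whose log2 fold change turned sign under some alternative were not called under any of them. With samples left out, values ran from -0.088 to 0.076 for *Rela*, -0.37 to 0.16 for *Relb*, -0.20 to 0.21 for *Nfkbiz*, -0.11 to 0.055 for *Tnip1*, -0.15 to 0.056 for *Birc3*, -0.030 to 0.45 for *Traf1*, -0.38 to 0.051 for *Tnf*, -0.67 to 0.25 for *Icam1*, -0.0066 to 0.80 for *Fos*, -0.046 to 0.23 for *Fosl2*, -0.087 to 0.31 for *Jun*, -0.20 to 0.061 for *Junb*, -0.33 to 0.15 for *Klf2* and -0.10 to 0.13 for *Ier5*. *Birc3* was at 0.0025 under upper-quartile factors. *Klf2* was at 0.0073 under DESeq2, at 0.0069 under RLE factors, at 0.013 under upper-quartile factors and at 0.011 with a minimum of 10 counts in every sample.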
